A study of Sus scrofa with 12 samples.

Results

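The genes of the myostatin and IGF growth axis, which set how much muscle is built and kept, were examined in the longissimus dorsi muscle of Iberian pigs. The axis was taken as 10 genes picked by symbol: the ligands MSTN, INHBB, IGF1 and IGF2, the inhibitor FST, the receptors ACVR2B, IGF1R and IGF2R, and the binding proteins IGFBP4 and IGFBP5. An Ensembl identifier with the gene's symbol was found for 9 of the 10 among the 25880 genes of the count tables, and all 9 passed the filter on low counts. IGF2 had no identifier under that symbol and is not analysed here.

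Muscle RNA of 12 pigs was sequenced, with 1 library per pig. The pigs were castrated Iberian males of a closed commercial population, fattened outdoors on acorns and grass, slaughtered in the same season at about 17 months and chosen for extreme estimated breeding values for muscle myoglobin (MB) content while avoiding full sibs. The High MB group held 6 pigs with 2.376 to 2.559 mg/g of myoglobin, and the Low MB group held 6 pigs with 1.226 to 1.58 mg/g. No animal was treated, and the groups differ by selection on breeding value within 1 breed.

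Myostatin, encoded by MSTN, is a secreted TGF-beta family protein made by muscle fibres that restrains muscle growth, and animals that lack it are heavily muscled. It is cut from a propeptide, binds the activin type II receptors, of which ACVR2B is one, and signals through SMAD2 and SMAD3, while follistatin (FST) holds it and the activins away from their receptors. IGF1 and IGF2 act in the opposite direction, promoting growth and protein synthesis through IGF1R. The IGF binding proteins carry the IGFs in blood and tissue, and IGF2R removes IGF2 by internalising it.

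Gene counts summed to between 38914271 and 91318334 per pig. Libraries of more than 50000000 gene counts, called deep here, came from pigs 4 and 6 of the High MB group and from pigs 1, 5 and 6 of the Low MB group, and the other 7 libraries are called standard. High MB pig 2 and Low MB pig 4 stood apart from the rest: they formed a branch of their own when the pigs were clustered on all genes, and their median correlation with the other pigs was 0.948 and 0.962, against at least 0.967 in the others. The summed level of 3 fast fibre genes (TNNI2, TNNC2 and TNNT3) was 14353 CPM (counts scaled to a common library size with edgeR's TMM method) in High MB pig 2 and 21497 in Low MB pig 4, the lowest in each group, against 22837 to 29783 in the other 10 pigs. Several log2 FC values and correlations are given with and without these 2 pigs, though not every one that they move. Defining muscle genes were abundant in every pig, and the 3 tested of the general muscle fibre list (ACTA1, CKM and DES) summed to 32157 CPM in High MB pig 2 against 55658 to 102903 CPM in the other 11 pigs. ACTA1 and CKM were lowest in that pig (18547 and 7455 CPM, against at least 34001 and 12797 CPM in the Low MB group). DES was not, since High MB pig 6 held the least DES of its group (5578 CPM).

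MSTN is known to be controlled in muscle through E-boxes, the sites of the MyoD family of muscle factors, and its upstream sequence is therefore shown beside that of INHBB, the other ligand of the family among the members, whose level had r = -0.72 with that of MSTN over the pigs. Both windows come from the RefSeq annotation of Sscrofa11.1, begin 250 bases before the annotated gene start and end 129 bases before it, and are written from 5′ to 3′ on the gene's strand, with E-boxes (CANNTG, which reads the same on both strands) and TATA motifs (TATAAA, searched on both strands) in capitals. The MSTN window is chr15:94628569-94628690 (minus strand) and the INHBB window is chr15:31004534-31004655 (minus strand).
MSTN: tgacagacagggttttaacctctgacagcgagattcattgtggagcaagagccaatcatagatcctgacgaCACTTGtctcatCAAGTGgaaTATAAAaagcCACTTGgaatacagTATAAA
INHBB: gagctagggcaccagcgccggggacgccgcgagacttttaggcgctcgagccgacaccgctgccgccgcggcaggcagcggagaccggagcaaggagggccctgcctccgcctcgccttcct

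The MSTN window held 3 E-boxes, which began 179, 167 and 148 bases before the gene start, and 2 TATA motifs, which began 158 and 134 bases before it. The INHBB window held neither motif. GC content was 40.98% in the MSTN window and 73.77% in the INHBB window, against a median of 54.92% over the same window of 19545 protein-coding genes. An E-box was found in 39.2% of those windows and a TATA motif in 5.02%. The annotated MSTN model begins at the start codon, whereas the INHBB model holds 734 transcript bases before its start codon. The 2 windows are thus not placed alike, and the background windows likewise follow each gene's annotated start. The near end of the window was placed at the TATA motif nearest to the MSTN start after the sequence had been seen, so the motif counts describe these letters only.

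Which members differ between pigs of high and low breeding value for myoglobin was tested with edgeR (quasi-likelihood test, Benjamini-Hochberg adjusted over 13373 genes), where a gene was called at an adjusted p under 0.10 and an absolute log2 fold change (log2 FC, High MB minus Low MB) over 0.58. No member was called, and of all genes tested 0% were called, with a smallest adjusted p of 0.563. DESeq2 with default settings called 29 genes, none of them a member, and edgeR gave an unadjusted p under 0.05 for 1132 genes. At an unadjusted p under 0.05, 1 of the 9 members, IGFBP4, was higher in the High MB group (11.1% of members), against 8.46% of all genes in either direction, 5.33% higher and 3.13% lower. The log2 FC was above 0 for 7 of the 9 members, with a median of 0.29, against 46.9% of all genes and a median of -0.02. An absolute log2 FC over 0.58 was seen for 2 of the 9, FST and IGFBP4, against 8.29% of all genes. The groups overlapped for every member, whereas 0.426% of all genes had groups that did not overlap. In bulk muscle a difference in any of these genes can come from fewer cells of a type or from less RNA per cell, and these cannot be told apart.

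**Figure D1:**
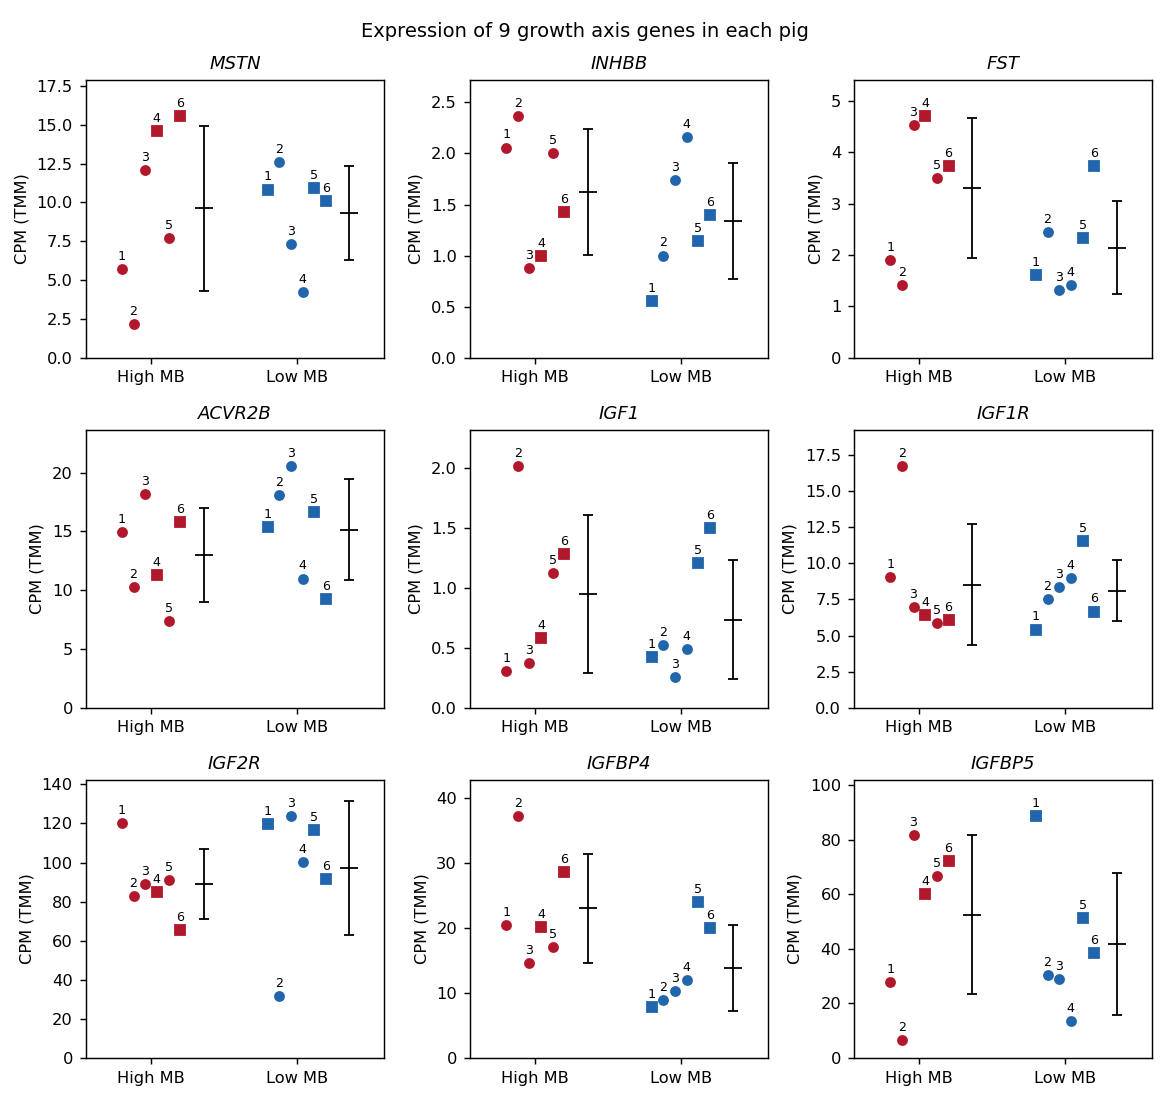
CPM (with TMM scaling, linear axes from 0) of the 9 members in each of the 12 pigs, with High MB pigs in red, Low MB pigs in blue, deep libraries as squares, standard libraries as circles, pig numbers beside the points, and bars for the mean ± SD of 6 pigs. The groups overlap in every panel, and the points of IGFBP4 in the High MB group (14.6 to 37.3 CPM) all lie above the Low MB median of 11.1 CPM.

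Among the ligands, MSTN (ENSSSCG00000016047, chromosome 15, 94623526 to 94628440, minus strand) was read 103 to 1447 times per pig. Its level was 2.14 CPM in the lowest, 9.88 in the median and 15.6 in the highest pig of the High MB group, and 4.25, 10.5 and 12.6 CPM in the Low MB group. The lowest pig of each group was one of the 2 that stood apart, and the High MB group enclosed the whole range of the Low MB group. The group means were 9.63 ± 5.32 and 9.33 ± 3.03 CPM (SD, n = 6 each), with a log2 FC of 0.05 ± 0.38 (SE) and a 95% interval from -0.77 to 0.87 (edgeR adjusted p = 0.985). A doubling in either direction lies outside that interval. The sign depended on the scale, since the difference of the mean log2 CPM was -0.14 (exact two-sided permutation p = 0.799). Without the 2 pigs that stood apart the log2 FC was 0.13.

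The members were also set against sequencing depth. For MSTN, the 5 deep libraries held 10.1 to 15.6 CPM and the 7 standard libraries 2.14 to 12.6 CPM, a difference of 0.93 in mean log2 CPM. Without the 2 pigs that stood apart, both of them standard libraries, it was 0.49. Within the deep libraries the High MB pigs (14.6 and 15.6 CPM) exceeded the 3 Low MB pigs (10.1 to 10.9 CPM), a difference of 0.51 in mean log2 CPM, while within the standard libraries the difference was -0.33. Deep minus standard differences in mean log2 CPM were 0.63 for IGF1 (0.95 without the 2 pigs that stood apart) and -0.63 for INHBB (-0.45 without them), and between -0.31 and 0.50 for FST, IGFBP4 and the 3 receptors. The part of depth in these levels was not tested.

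INHBB (ENSSSCG00000038610, chromosome 15, 30999994 to 31004405, minus strand) encodes the beta B subunit of activins and inhibins, ligands that share the type II receptors with myostatin. It was read only 33 to 133 times per pig. Its level was 0.876, 1.72 and 2.37 CPM in the lowest, median and highest High MB pig and 0.558, 1.27 and 2.16 CPM in the Low MB group. The highest pig of each group was again High MB pig 2 or Low MB pig 4, the reverse of MSTN, and the ranges overlapped from 0.876 to 2.16 CPM. Between the groups the log2 FC was 0.29 ± 0.34 (SE, 95% interval -0.44 to 1.01, edgeR adjusted p = 0.844), and 0.36 without those 2 pigs.

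IGF1 (ENSSSCG00000000857, chromosome 5, 81762027 to 81909253, plus strand), the growth factor made by liver and locally by muscle, was the least read member with 10 to 119 counts per pig. It was measured at 0.309, 0.854 and 2.01 CPM in the lowest, median and highest High MB pig and at 0.257, 0.507 and 1.50 CPM in the Low MB group. The highest High MB pig was pig 2, and the pigs differed 7.85-fold from the lowest to the highest. Its log2 FC was 0.36 ± 0.52 (SE) and its interval, from -0.74 to 1.46, was the widest of the 9 members (edgeR adjusted p = 0.875). It was 0.02 without High MB pig 2 and -0.07 without both pigs that stood apart, and its size moved with other libraries too, to 0.20 without Low MB pig 3 and 0.70 without Low MB pig 6. It was 0.60 with depth class as a covariate, and the difference of the mean log2 CPM was -0.09 among deep and 0.78 among standard libraries. The liver genes ALB and APOA1 summed to 4.07 to 16.8 CPM in the High MB group and 5.13 to 12.2 CPM in the Low MB group.

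The inhibitor FST (ENSSSCG00000016892, chromosome 16, 32806341 to 32811382, plus strand) was read 51 to 348 times per pig. Its level was 1.41, 3.62 and 4.71 CPM in the lowest, median and highest High MB pig and 1.31, 1.98 and 3.74 CPM in the Low MB group. In the High MB group, pigs 3, 4 and 6 lay above every Low MB pig, pig 6 by less than 0.01 CPM, while pigs 1 and 2 lay below the Low MB median. FST had a log2 FC of 0.62 ± 0.33 (SE, 95% interval -0.09 to 1.32, edgeR adjusted p = 0.612). It was 0.70 without the 2 pigs that stood apart, with an adjusted edgeR p of 0.608. The unadjusted edgeR p was 0.0393 in that fit, where FST and not IGFBP4 was the 1 member under 0.05, and 0.0366 with depth class as a covariate. The difference of the mean log2 CPM was 0.79 in deep and 0.62 in standard libraries. Neither FST nor MSTN passed the test, and the pigs differed 3.60-fold in FST and 7.28-fold in MSTN from the lowest to the highest.

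Among the receptors, ACVR2B (ENSSSCG00000011257, chromosome 13, 23237699 to 23276086, plus strand), a type II receptor for myostatin and activins, was measured at 7.39, 13.1 and 18.1 CPM in the lowest, median and highest High MB pig and at 9.24, 16.0 and 20.5 CPM in the Low MB group. The ranges overlapped from 9.24 to 18.1 CPM, and 1 Low MB pig lay above all High MB pigs. The log2 FC was -0.22 ± 0.23 (SE, 95% interval -0.71 to 0.27, edgeR adjusted p = 0.813). The difference of the mean log2 CPM was 0.01 in deep and -0.41 in standard libraries.

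IGF1R (ENSSSCG00000030560, chromosome 1, 137383623 to 137691038, minus strand) is the tyrosine kinase receptor through which the IGFs signal. Its level was 5.89, 6.69 and 16.7 CPM in the lowest, median and highest High MB pig and 5.42, 7.94 and 11.6 CPM in the Low MB group. High MB pig 2 alone held 16.7 CPM, whereas the other 5 High MB pigs lay between 5.89 and 9.06 CPM, inside the Low MB range. The log2 FC was 0.07 ± 0.26 (SE, 95% interval -0.49 to 0.64, edgeR adjusted p = 0.956). It was -0.22 without High MB pig 2 and -0.18 without both pigs that stood apart. It was also negative without Low MB pig 1 (-0.018), with depth class as a covariate and in the deep libraries alone, so its sign is not settled.

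IGF2R (ENSSSCG00000004044, chromosome 1, 7369485 to 7472480, minus strand), the mannose 6-phosphate receptor that clears IGF2, had 1258 to 8143 counts per pig. Its level was 65.6, 86.9 and 120 CPM in the lowest, median and highest High MB pig and 31.5, 108 and 124 CPM in the Low MB group. Low MB pig 2 held 31.5 CPM, far under the other 5 Low MB pigs, which held 91.6 to 124 CPM. The log2 FC was -0.13 ± 0.26 (SE, 95% interval -0.67 to 0.42, edgeR adjusted p = 0.915), and -0.30 without Low MB pig 2. The difference of the mean log2 CPM was -0.54 in deep and 0.38 in standard libraries, which hold that pig.

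Of the binding proteins, IGFBP4 (ENSSSCG00000017472, chromosome 12, 21966524 to 21980043, minus strand), which sequesters IGFs and is best known as an inhibitor of their action, was the member with the lowest p. Its level was 14.6, 20.4 and 37.3 CPM in the lowest, median and highest High MB pig and 7.83, 11.1 and 24.0 CPM in the Low MB group. All 6 High MB pigs lay above the Low MB median, and pigs 2 and 6 lay above every Low MB pig, while Low MB pigs 5 and 6 reached into the High MB range. The means were 23.0 ± 8.44 and 13.8 ± 6.61 CPM (SD, n = 6 each), a 1.66-fold difference with a 95% interval from 1.07 to 2.58. The log2 FC was 0.73 ± 0.30 (SE) with an unadjusted edgeR p of 0.0255 and an adjusted p of 0.563, so IGFBP4 did not pass the test over all genes. The exact two-sided permutation test of its mean log2 CPM over all splits of the pigs into 6 and 6 gave p = 0.0368, where the smallest p possible is 0.0022.

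The difference in IGFBP4 was 0.63 in mean log2 CPM among deep and 1.01 among standard libraries. Leaving out 1 pig at a time gave a log2 FC from 0.56 (without High MB pig 2) to 0.96 (without Low MB pig 5), with unadjusted edgeR p between 0.00409 and 0.0711 and under 0.05 in 7 of the 12 fits. It was above 0.05 without High MB pig 2 or 6, or without Low MB pig 1, 2 or 3. Without both pigs that stood apart the log2 FC was 0.53 (edgeR unadjusted p = 0.111).

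IGFBP5 (ENSSSCG00000025924, chromosome 15, 118861816 to 118877787, minus strand), a binding protein abundant in muscle and bone matrix that can either hold back or aid IGF action, varied most among the members. Its level was 6.52, 63.5 and 81.9 CPM in the lowest, median and highest High MB pig and 13.5, 34.3 and 88.6 CPM in the Low MB group. As for MSTN, the lowest pigs were the 2 that stood apart, and the lowest and highest pigs differed 13.6-fold. Its SD over the 12 pigs was 1.13 on the log2 CPM scale, at percentile 97.1 of all genes tested, whose median SD was 0.33. The log2 FC of 0.33 ± 0.50 (SE, 95% interval -0.74 to 1.39, edgeR adjusted p = 0.882) was under 1 SE. It was 0.60 with depth class as a covariate and 0.93 in the fit of the standard libraries alone. Deep libraries exceeded standard libraries by 1.12 in mean log2 CPM, and by 0.50 without the 2 pigs that stood apart.

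The wider pathway was described with a list of 59 genes of the axis, the members included, of which 50 could be tested. None was called, as for all genes. At an unadjusted edgeR p under 0.05, 6 had higher and 3 had lower levels in the High MB group (18% of the 50, against 8.46% of all genes), with a median log2 FC of 0.04. On the myostatin and activin side 28 of 30 genes were tested, 4 higher and 1 lower, and on the IGF side 22 of 29 were tested, 2 higher and 2 lower. Without the members, 8 of 41 tested genes (19.5%) had an unadjusted p under 0.05, 5 higher and 3 lower, with a median log2 FC of 0.02. Markers of other cells also had higher levels at such a p, in 3 of 6 fibroblast, 2 of 4 macrophage and 2 of 5 adipocyte genes tested, and DCN is on both the pathway and the fibroblast list. The part of other cells in the pathway counts was not tested. The count over the list was 4 without High MB pig 5, where 844 of 13469 genes had such a p, and 5 without High MB pig 4, where 927 of 13457 genes did.

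**Figure D2:**
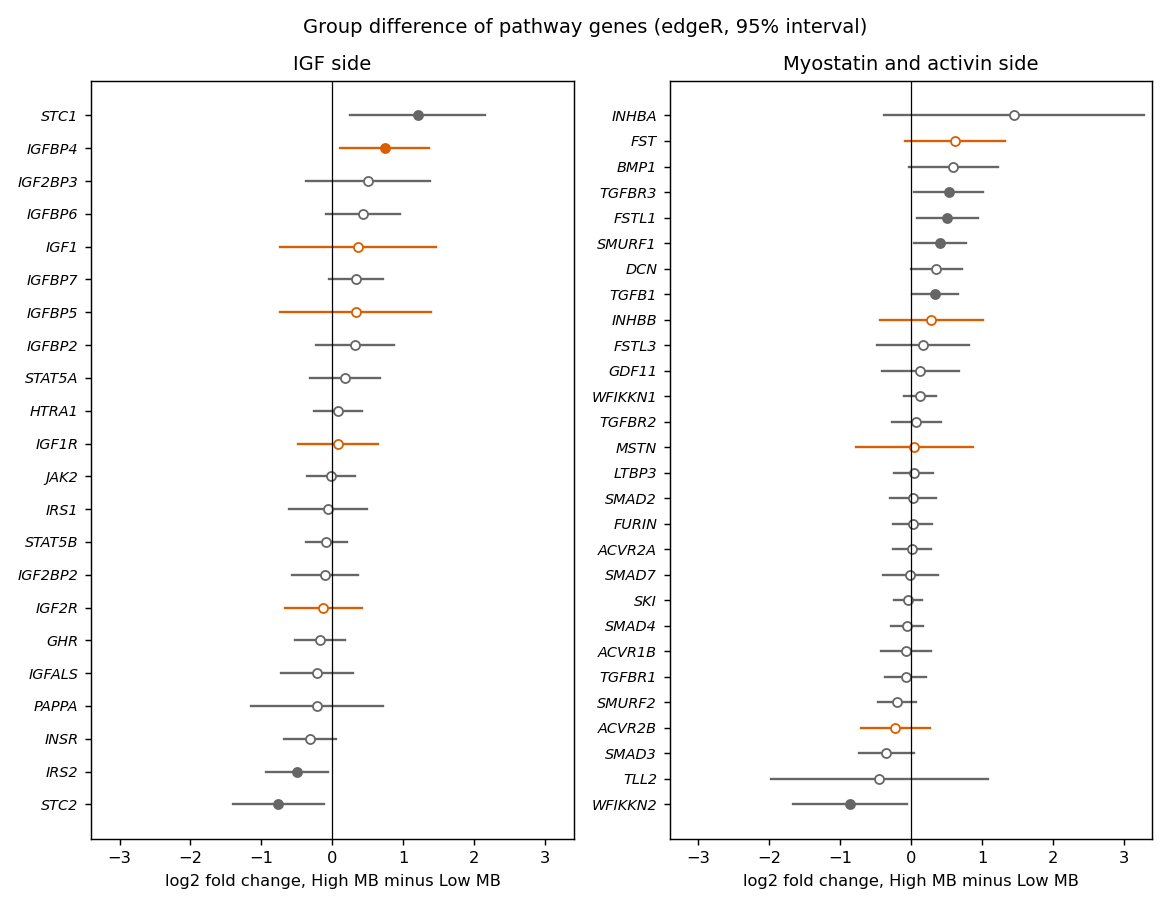
Log2 fold change (High MB minus Low MB, edgeR) of the 50 pathway genes tested, with lines for the 95% interval, members in orange, other genes in grey, and filled points for an unadjusted p under 0.05. Intervals lie on both sides of 0 on either side of the axis, and the filled points run from STC1 at 1.20 to WFIKKN2 at -0.86.

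Among the genes listed here as extracellular inhibitors on the myostatin and activin side, FSTL1 and WFIKKN2 had an unadjusted p under 0.05, in opposite directions. Inhibition of myostatin by their proteins was not measured. FSTL1, a follistatin-like secreted protein, was at 66.7 to 124 CPM in the High MB group and 36.3 to 83.9 CPM in the Low MB group (log2 FC ± SE of 0.51 ± 0.20, edgeR adjusted p = 0.563). WFIKKN2, which binds myostatin and its propeptide, was at 2.01 to 8.91 CPM against 5.85 to 20.3 CPM (log2 FC -0.86 ± 0.38, edgeR adjusted p = 0.571). Of FSTL1, 4 High MB pigs lay above every Low MB pig, and of WFIKKN2, 2 Low MB pigs lay above every High MB pig. DCN, a matrix proteoglycan that traps myostatin, was at 92.8 to 179 CPM against 87.7 to 120 CPM (log2 FC 0.35 ± 0.17, edgeR adjusted p = 0.589). FSTL3, WFIKKN1 and LTBP3 had log2 FC values of 0.16, 0.12 and 0.04.

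Of the ligands related to myostatin, TGFB1 was at 7.49 to 10.7 CPM in the High MB group and 5.02 to 9.47 CPM in the Low MB group (log2 FC 0.33 ± 0.15, unadjusted p under 0.05, edgeR adjusted p = 0.578). INHBA, the activin beta A subunit, had the largest log2 FC of the list at 1.45 but an SE of 0.86 (edgeR adjusted p = 0.648). Its High MB median of 0.269 CPM was below the Low MB median of 0.548 CPM, and 2 of the High MB pigs lay above the whole Low MB range, the highest at 6.77 CPM. GDF11, the closest relative of myostatin, had a log2 FC of 0.13. The type III receptor TGFBR3 (log2 FC 0.53 ± 0.23) and the ubiquitin ligase SMURF1 (0.41 ± 0.17), which marks SMADs and receptors for degradation, also had an unadjusted edgeR p under 0.05. ACVR2A, the other type II receptor of myostatin, had a log2 FC of 0.01. The receptors ACVR1B, TGFBR1 and TGFBR2 had log2 FC values of -0.07, -0.07 and 0.08.

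On the IGF side STC1, STC2, IRS2 and IGFBP4 had an unadjusted p under 0.05, and the values were largest for the stanniocalcins, secreted inhibitors of the PAPPA proteases that cut IGFBP4 and IGFBP5. STC1 was at 0.807 to 5.30 CPM in the High MB group and 0.441 to 1.55 CPM in the Low MB group (log2 FC 1.20 ± 0.44, edgeR adjusted p = 0.563). STC2 was at 2.06 to 5.65 CPM against 3.23 to 11.2 CPM, the other direction (log2 FC -0.76 ± 0.30, edgeR adjusted p = 0.563). PAPPA itself had an interval that included 0. IRS2, an adaptor that couples the insulin and IGF receptors to their signal, was at 6.68 to 13.5 CPM against 8.21 to 18.9 CPM, with 4 Low MB pigs above every High MB pig (log2 FC -0.50 ± 0.20, edgeR adjusted p = 0.563). The receptors INSR and GHR had log2 FC values of -0.31 and -0.18, and the binding proteins IGFBP2, IGFBP6 and IGFBP7 had 0.32, 0.43 and 0.34. IGFALS, listed in the same role as the binding proteins, had -0.22. None of these genes had an unadjusted p under 0.05.

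Which members varied together over the pigs was examined with 36 correlations of log2 CPM over the 12 pigs, each with a permutation p adjusted over the 36 and called at an adjusted p under 0.05. MSTN and IGFBP5 had the highest correlation, with r = 0.88 (permutation p = 0.00055, adjusted 0.0198) and rho = 0.71 (adjusted permutation p = 0.0945). It was 0.94 within the High MB and 0.77 within the Low MB group, and 0.40 in deep and 0.86 in standard libraries. Without the 2 pigs that stood apart, which had the least MSTN, it was 0.53 (permutation p = 0.114, adjusted 0.446). The adjusted call was also lost in 3 of the 12 fits that left out 1 pig. These were the fits without High MB pig 2, Low MB pig 3 or Low MB pig 4.

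IGF1R and IGFBP5 ran in opposite directions, with r = -0.81 (adjusted permutation p = 0.0437) and rho = -0.80 (adjusted permutation p = 0.0534). The correlation was -0.98 within the High MB group but -0.43 within the Low MB group, and -0.49 in deep and -0.91 in standard libraries. It was -0.88 without the pigs farthest from the median of IGF1R (pig 2 of the High MB and pig 5 of the Low MB group), and -0.58 without the 2 pigs that stood apart (permutation p = 0.0783). The adjusted call was lost in 10 of the 12 fits that left out 1 pig (adjusted permutation p from 0.0512 to 0.276) and held only without Low MB pig 1 or Low MB pig 5. The other 34 pairs had an adjusted p of at least 0.05, and 6 of them had one under 0.10. Of these, MSTN with IGF1R (-0.75), INHBB (-0.72) and FST (0.69), IGF1 with IGFBP4 (0.72) and INHBB with IGFBP5 (-0.70) each had an adjusted permutation p of 0.0567, and FST with IGFBP5 (0.65) had 0.0849. Without the 2 pigs that stood apart, r of MSTN was -0.33 with IGF1R, -0.62 with INHBB and 0.57 with FST. That of IGF1 and IGFBP4 was then 0.61, that of INHBB and IGFBP5 -0.54, and that of FST and IGFBP5 0.46.

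**Figure D3:**
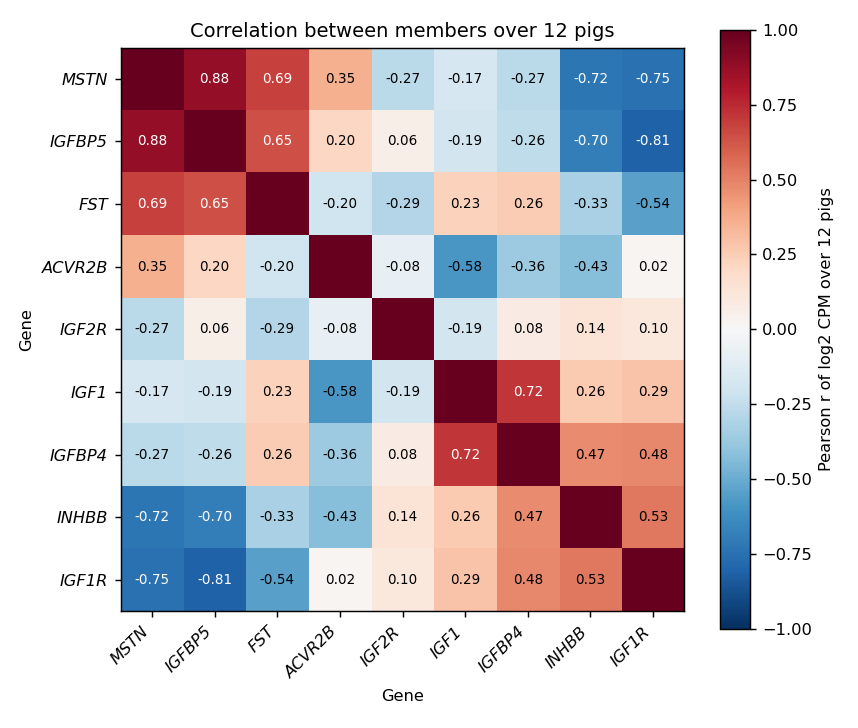
Pearson r of log2 CPM between each pair of the 9 members over the 12 pigs, from blue (-1) to red (1). MSTN and IGFBP5 (0.88) and IGF1R and IGFBP5 (-0.81) are the 2 pairs with an adjusted permutation p under 0.05.

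Among the marker lists, MSTN and IGFBP5 each had their highest r with the fast fibre genes. The mean log2 CPM of TNNI2, TNNC2 and TNNT3, the fast troponins, correlated with MSTN at r = 0.88 and rho = 0.69 and with IGFBP5 at r = 0.86 and rho = 0.68. Both r had an adjusted permutation p of 0.0193 over 90 relations of members with marker lists, while both rho had 0.263. Without the 2 pigs that stood apart r was 0.57 for MSTN and 0.58 for IGFBP5, and without the 2 pigs farthest from the median of the fast fibre mean (High MB pigs 2 and 6) it was 0.63 and 0.68. Neither was tested without those pigs. Within the High MB and the Low MB group r was 0.94 and 0.67 for MSTN and 0.90 and 0.91 for IGFBP5. Within the deep and the standard libraries r was 0.45 and 0.84 for MSTN and 0.73 and 0.83 for IGFBP5. Of the 6 fast fibre genes listed 3 were tested, none had an unadjusted p under 0.05 between the groups, none was at 0 in any pig, and the list summed to 14353 to 29783 CPM in the High MB and 21497 to 29453 CPM in the Low MB group. Of the slow fibre genes, all 4 tested of 5 (TNNI1, TNNC1, TNNT1 and MYL3) were higher in the High MB group at an unadjusted edgeR p under 0.05, with log2 FC values from 0.51 to 0.58. Their mean correlated with MSTN at r = 0.07 and rho = 0.08 (adjusted permutation p = 0.972 and 0.991). With IGFBP5 it correlated at r = 0.38 and rho = 0.34 (adjusted permutation p = 0.542 and 0.799), and r was 0.50 without the 2 pigs that stood apart. The general muscle fibre list correlated with MSTN at r = 0.63 and with IGFBP5 at r = 0.62 (adjusted permutation p = 0.208 and 0.202), and the macrophage list at r = -0.67 and -0.66 (adjusted permutation p = 0.175 for both). These were, without the pigs that stood apart, 0.05 and 0.16 for the muscle list and 0.05 and 0.03 for the macrophage list. The part of fibre type and of other cells in the levels of MSTN and IGFBP5 was not tested.

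Of the 10 marker lists, only the endothelial one had an adjusted permutation p under 0.05 with IGFBP4, and only for r. Its correlation with the mean of the endothelial genes PECAM1, CDH5, KDR and TEK was r = 0.78 (adjusted permutation p = 0.0441 over the 90 relations) and rho = 0.76 (adjusted permutation p = 0.263). It was 0.77 without the 2 pigs that stood apart, and 0.70 without Low MB pigs 1 and 4, which had the least endothelial signal. It was 0.43 within the High MB and 0.84 within the Low MB group, and 0.97 in deep and 0.66 in standard libraries. Those 4 genes, of 5 listed, were at 0 in no pig and summed to 114 to 157 CPM in the High MB group and 70.1 to 175 CPM in the Low MB group, none with an unadjusted p under 0.05 between groups.

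The fibroblast, adipocyte and macrophage lists did not pass that test with IGFBP4, but some of their genes were higher in the High MB group at an unadjusted p under 0.05. Of the fibroblast genes, 3 of 6 (COL1A1, COL1A2 and PDGFRA) had an unadjusted edgeR p under 0.05, and the list summed to 630 to 1118 CPM against 326 to 828 CPM. Of the adipocyte genes, 2 of 5 (FABP4 and CIDEC) did, and the list summed to 55.3 to 228 CPM against 35.8 to 199 CPM. IGFBP4 correlated with the fibroblast list at r = 0.70 and rho = 0.64 (adjusted permutation p = 0.168 and 0.300) and with the adipocyte list at r = 0.74 and rho = 0.71 (adjusted permutation p = 0.147 and 0.263). With the adipocyte list r was 0.03 within the High MB and 0.92 within the Low MB group. None of the fibroblast and adipocyte markers was at 0 in any pig. Of the macrophage genes (4 tested of 5), 2 (CSF1R, log2 FC 0.60, and CD163, 1.09) had an unadjusted edgeR p under 0.05, and 3 High MB pigs had a summed level above that of every Low MB pig. The list summed to 29.8 to 90.5 CPM in the High MB group, with the highest value in pig 2, and to 18.7 to 38.2 CPM in the Low MB group. IGFBP4 correlated with it at r = 0.63 and rho = 0.46 (adjusted permutation p = 0.175 and 0.593), and with the smooth muscle and pericyte list, none of whose 5 genes had an unadjusted p under 0.05, at r = 0.60 and rho = 0.57 (adjusted permutation p = 0.184 and 0.477). Leaving out the pigs that stood apart, r was 0.71 for the fibroblast, 0.78 for the adipocyte, 0.52 for the macrophage and 0.86 for the smooth muscle and pericyte list. Leaving out the 2 pigs farthest from the median of each list, it was 0.44, 0.53, 0.16 and 0.33. The part of these 4 lists in the difference of IGFBP4 was not tested.

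**Figure D4:**
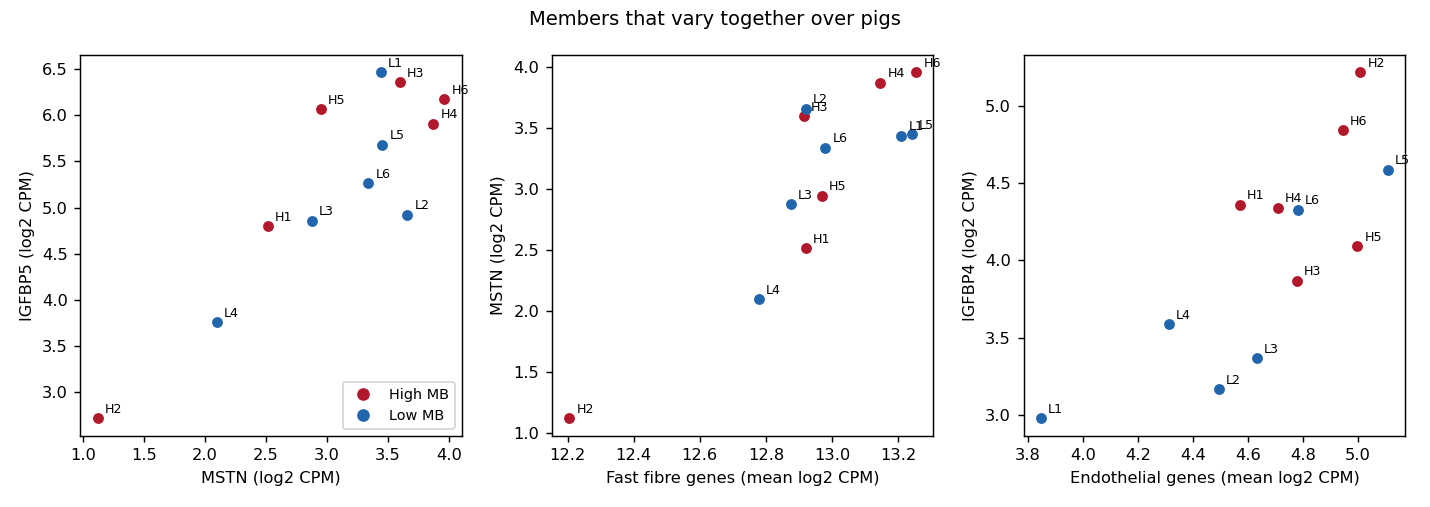
Log2 CPM in each of the 12 pigs (H1 to H6 High MB in red, L1 to L6 Low MB in blue) of IGFBP5 against MSTN, of MSTN against the mean of 3 fast fibre genes, and of IGFBP4 against the mean of 4 endothelial genes. H2 and L4 lie at the low end of the first 2 panels, where r falls from 0.88 to 0.53 and from 0.88 to 0.57 without them, and in the endothelial panel r is 0.78 with and 0.77 without them.

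Within each group the members were set against the myoglobin content of the same muscle, in 18 relations over 6 pigs each. None had an adjusted p under 0.05. The lowest p was that of FST in the Low MB group, where r was -0.92 (exact permutation p = 0.0111, adjusted 0.2) and rho -0.94 (exact permutation p = 0.0167, adjusted 0.3), and r was -0.99 without the 2 pigs farthest in myoglobin. Its r was 0.09 in the High MB group. The next lowest p was that of IGF2R in the Low MB group, with r = 0.65 (exact permutation p = 0.0931) and rho = 0.83 (exact permutation p = 0.0583), and r was 0.37 without the 2 pigs farthest in myoglobin. MSTN and IGF1 had r of -0.71 and -0.71 and rho of -0.77 and -0.77 in the Low MB group (exact permutation p of r = 0.103 and 0.113, of rho 0.103 for both) and of -0.12 and -0.18 in the High MB group. The difference between the groups in these correlations was not tested.

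The genes whose levels were most like those of a member over the 12 pigs were sought among the tested genes with a symbol. For MSTN they were RNF187 (r = 0.95), DHRS3 (0.94) and PPP1R3B (0.94), a regulator of glycogen storage, and r was 0.81, 0.82 and 0.76 without the 2 pigs that stood apart. For IGFBP5 they were DUSP22, ADSS1, the muscle form of adenylosuccinate synthase, and PLPP7, each with r = 0.97, and 0.93, 0.92 and 0.91 without those pigs. For IGF1 they were MOV10, MACIR and TXNDC5, each with r = 0.87 and between 0.83 and 0.84 without those pigs. For IGFBP4 they were PCDH17 (r = 0.97), PLVAP (0.95), a protein of the diaphragms of capillary endothelium, and DOCK11 (0.95), with r of 0.97, 0.93 and 0.95 without those pigs. These values are the highest of many and carry no test.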

How the data were processed

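The authors sequenced longissimus dorsi RNA of 12 pigs with 150 bp paired reads, trimmed the reads (TrimGalore), mapped them to Sscrofa11.1 (hisat2) and counted them with htseq-count, per the paper's methods. The deposited gene tables hold whole-number counts with totals that differ between pigs, without normalization. The annotation release and the strand and overlap settings are not given in the sources used here, so reads of overlapping or antisense genes may be shared. Reads assigned to no gene were 50.9% to 52.0% of each library and stayed out of library sizes. The 12 transcript tables were not used.

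Symbols were matched through an Ensembl name table. Counts were tested in edgeR 4.0.16 (R 4.3.3) with TMM scaling, filterByExpr and glmQLFTest, High MB against Low MB with no covariate. CPM used TMM scaling, and log2 CPM a prior count of 2. The code was tested on simulated data of 13373 genes with 6 pigs a group, where 61% of 2-fold and 92% of 4-fold changes were called. The changed genes were drawn from all genes and no simulated pig stood apart, so these shares do not hold for the members. Correlations used 100000 permutations over 12 pigs, and exact tests over 6. P-values measure the spread between pigs. No 2 libraries agreed within sampling noise.

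The members and gene lists were chosen with earlier results of these data known. Named were all members, pathway genes with an unadjusted p under 0.05 or in a member's role, the 3 genes most like MSTN, IGF1 and IGFBP5, and markers that moved with a member. Chosen after values were seen were the fits without the 2 pigs that stood apart, correlations with marker lists and after removal of depth class means, IGFBP4 in the search for like genes, DCN as a value beside its role, and the upstream genes and window. Alternatives were RLE size factors, DESeq2 1.42.0, other filters, depth class as covariate, the pig number as a block, each pig left out and each depth class alone.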

Additional observations from a re-analysis of the deposited data

Results flagged for a closer look

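The 9 members in 2 groups of 6 pigs gave 18 sets of values, of which chance puts about 1 in 20 past the limit used for a lone sample. In 2 sets 1 pig lay far from the other 5 of its group. IGF1R was at 16.7 CPM in High MB pig 2, against 5.89 to 9.06 CPM in the other High MB pigs. IGF2R was at 31.5 CPM in Low MB pig 2, against 91.6 to 124 CPM in the other Low MB pigs. High MB pig 2 also had the highest IGF1, INHBB and IGFBP4 and the lowest MSTN, FST and IGFBP5 of its group, whereas Low MB pig 2, at 12.6 CPM, had the highest MSTN of its group.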

How the results depend on the processing

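No member and no pathway gene was called with other size factors, DESeq2, other filters, the depth covariate or the block, or without the 2 pigs that stood apart, and leaving out each pig gave 0 to 0 calls for all genes, members and pathway genes. DESeq2 called 29 of 19158 genes, none of them on the list. The log2 FC changed sign for MSTN with the pig number as a block (-0.10) and in standard libraries (-0.22), for ACVR2B in deep libraries (0.019), for IGF1 in deep libraries (-0.11) and without High MB pig 2 and Low MB pig 4 (-0.070), for IGF1R with depth as a covariate (-0.0079), in deep libraries (-0.30) and without those 2 pigs (-0.18), and for IGF2R in standard libraries (0.18). The causes were not tested. Leaving out each pig gave -0.15 to 0.28 for MSTN, 0.12 to 0.49 for INHBB, 0.49 to 0.85 for FST, -0.34 to -0.10 for ACVR2B, 0.02 to 0.70 for IGF1, -0.22 to 0.21 for IGF1R, -0.30 to -0.03 for IGF2R, 0.56 to 0.96 for IGFBP4 and 0.16 to 0.69 for IGFBP5.

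Pairs of members past the adjusted threshold numbered 7 with group means removed, 1 with depth class means removed, 0 without those 2 pigs and 0 to 6 with each pig left out (0 without High MB pig 2 or Low MB pig 3 or 4, 6 without Low MB pig 1). The r of MSTN and IGFBP5 then ran from 0.74 to 0.92, and that of IGF1R and IGFBP5 from -0.93 to -0.60. For the latter pair r was -0.79 with depth class means removed (adjusted permutation p = 0.0565). With each pig left out, 4 to 12 pathway genes, 0 to 2 members and 844 to 1454 of all genes had an unadjusted p under 0.05.

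Pigs that share a number correlated at -0.21 to 0.14 in their deviations, and none of the 6 High MB pigs was closest to its own number. No pairing by number was thus seen in these values. The block gave 0 calls. With 10 to 119 counts per pig, IGF1 has the widest interval.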
